A study of Mus musculus with 10 samples.

Results

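Cell division and DNA replication genes were examined in the terminal ileum of 10 male C57BL/6JJmsSlc mice, 5 stressed and 5 control. The genes were 43 named cell cycle genes, taken by their symbol in the annotation of the array, and the brightest probe set over the 10 mice was used for each. Of the 43, 42 had a probe set with a single gene symbol and 41 were bright enough to be tested, among 13666 genes tested in all. The level of Ccnb1, a mitotic cyclin, was not analysed here, because none of its probe sets carried that symbol alone. Tyms, the thymidylate synthase, was measured but lay below the filter on dim probe sets: the best of its 4 probe sets had a mean of 3.18 and lay between 2.99 and 3.60 over the 10 mice, so it was not tested.

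Stressed mice had gone through subchronic mild social defeat, in which a mouse is brought as an intruder to an aggressive resident, here a retired male ICR mouse. Contact after the first bite lasted 5 min on day 1 and 0.5 min less each day, down to 0.5 min on day 10. Control mice were unstressed. Mice of both groups were 7 weeks old, lived 1 to a cage, ate the AIN-93G diet and had fasted for 3 h when the lower small intestine was taken. RNA of each mouse was read on 1 Affymetrix 3' expression array, and the comparison asks whether social defeat went with a different expression in the ileum. The labels number the arrays as replicates and describe each as the ileum of a mouse, so n counts mice. They do not say whether the mice came from separate litters.

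The lining of the small intestine is renewed from the crypts. Stem cells and transit-amplifying cells divide there, while the enterocytes of the villus no longer do. A dividing cell first licenses its replication origins with the Mcm helicase, copies its DNA during S phase, and then builds a spindle on which kinases, a checkpoint and the anaphase-promoting complex time the separation of the chromosomes. Most of these genes are transcribed only in cycling cells. Genes of DNA replication are typical targets of E2F factors, and genes of mitosis are typical targets of the MuvB complexes, which bind the CHR element, often beside NF-Y at a CCAAT box. In whole tissue, fewer dividing cells and less of these RNAs per dividing cell cannot be told apart.

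Promoter windows of 4 members are shown because the members moved together from mouse to mouse and these 4 stand for the main differences described here. Cdc6 had the lowest deviation of all members in control mouse 1, Mcm5 had the smallest p over 10 mice, Ube2c had the smallest p without control mouse 1, and Mki67 encodes the proliferation antigen Ki-67. Each window runs from 250 bases before to 50 bases after the gene's start, in RefSeq's GRCm38.p6, and is written along the gene's own strand. Capitals mark matches on either strand to the CHR (TTTGAA), E2F (TTTCGCGC, TTTGGCGC or TTTCCCGC) and NF-Y (CCAAT) motifs. Cdc6 lies at chr11:98907901-98908200 on the plus strand, Mcm5 at chr8:75109259-75109558 on the plus strand, Ube2c at chr2:164769679-164769978 on the plus strand and Mki67 at chr7:135716330-135716629 on the minus strand.
Cdc6: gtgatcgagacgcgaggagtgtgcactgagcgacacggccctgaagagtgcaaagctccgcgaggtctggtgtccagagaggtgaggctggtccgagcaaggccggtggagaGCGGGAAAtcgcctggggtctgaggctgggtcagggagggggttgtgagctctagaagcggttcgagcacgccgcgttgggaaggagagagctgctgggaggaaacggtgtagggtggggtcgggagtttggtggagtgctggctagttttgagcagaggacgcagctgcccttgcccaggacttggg
Mcm5: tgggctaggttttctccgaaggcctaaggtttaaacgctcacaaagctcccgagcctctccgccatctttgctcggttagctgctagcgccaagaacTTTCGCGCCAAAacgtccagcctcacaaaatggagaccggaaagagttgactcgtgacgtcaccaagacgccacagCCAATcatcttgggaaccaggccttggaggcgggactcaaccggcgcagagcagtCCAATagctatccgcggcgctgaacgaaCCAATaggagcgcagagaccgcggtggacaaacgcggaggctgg
Ube2c: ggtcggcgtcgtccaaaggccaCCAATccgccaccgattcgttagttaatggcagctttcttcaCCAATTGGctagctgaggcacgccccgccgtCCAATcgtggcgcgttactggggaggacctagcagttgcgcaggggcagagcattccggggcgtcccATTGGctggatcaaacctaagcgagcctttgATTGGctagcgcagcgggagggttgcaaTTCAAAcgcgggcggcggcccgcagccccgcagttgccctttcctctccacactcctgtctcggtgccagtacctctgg
Mki67: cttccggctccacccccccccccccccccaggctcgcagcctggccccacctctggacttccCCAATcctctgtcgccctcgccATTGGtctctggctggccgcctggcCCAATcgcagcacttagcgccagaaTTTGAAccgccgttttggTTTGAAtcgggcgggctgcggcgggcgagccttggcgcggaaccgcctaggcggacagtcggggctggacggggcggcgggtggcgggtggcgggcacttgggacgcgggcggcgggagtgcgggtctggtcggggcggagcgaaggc

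Both replication genes held E2F matches and no CHR match. Cdc6 had 1 E2F match and Mcm5 had 2 that overlap. Ube2c and Mki67 held CHR and NF-Y matches and no E2F match, with 1 CHR match in Ube2c and 2 in Mki67. The same division was seen over the members. A window was given for 35 of the 43 members, among them Ccnb1 and Tyms, whose levels were not tested, and for 27025 genes in all. A gene with several windows was counted where any of them held a match. Of the 13 members of DNA replication with a window, Tyms included, 6 held an E2F match (46.2 percent), 2 a CHR match (15.4 percent) and 9 an NF-Y match (69.2 percent). Of the other 22 members with a window, Ccnb1 included, 1 held an E2F match (4.55 percent), 15 a CHR match (68.2 percent) and 18 an NF-Y match (81.8 percent). Among all genes with a window, 2.12 percent held an E2F match, 20.2 percent a CHR match and 41.1 percent an NF-Y match. A CHR and an NF-Y match in the same window were found in 17 of 35 members (48.6 percent), against 8.97 percent of all genes. These are matches of letters in a window, not measured binding sites.

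**Figure D1:**
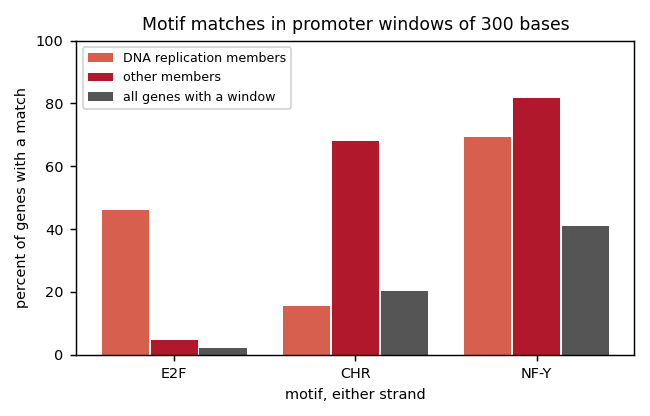
Percent of promoter windows of 300 bases that hold a match to each motif on either strand, for members of DNA replication, the other members and all genes with a window. The E2F bar of the replication members stands at 46.2 percent, and the CHR bar of the other members at 68.2 percent.

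Levels are log2 RMA values, on which a difference of 1 is a 2-fold change, and differences are stressed minus control with their standard error (SE) from limma. Mean levels of the 41 members over the 10 mice ran between 5.53 and 10.7, with a median of 7.38, against a median of 7.00 over all genes tested. Levels of different probe sets are not compared. The array of control mouse 1 stood apart from the other 9, with correlations of 0.918 to 0.947 to them, against 0.975 to 0.995 among the 9. It also went against its tissue label. Fabp6, the ileal bile acid binding protein, lay between 13.95 and 14.10 in stressed mice and between 13.88 and 13.93 in control mice 2 to 5, but at 7.88 in control mouse 1. Each comparison is therefore given over 10 mice and over 9, without control mouse 1.

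No cell division gene passed the test between stressed and control mice. Over 10 mice limma called 0 of 41 members at an adjusted p under 0.05, and 0 percent of all genes. Without control mouse 1 it called 0 of 41 members, and 0.798 percent of all genes (36 higher, 73 lower). At an unadjusted p under 0.05 there were again 0 members in either comparison, against 7.82 percent of all genes over 10 mice and 18.0 percent without control mouse 1. The stressed and control levels overlapped in all 41 members both times, whereas the groups did not overlap in 2.28 percent of all genes over 10 mice and in 7.24 percent over 9. The smallest adjusted p of a member was 0.684 over 10 mice and 0.297 without control mouse 1.

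The differences were small and turned with the choice of mice. Over 10 mice 28 members were higher and 13 lower in stressed mice, with a median difference of 0.07, against 0.00 over all genes. Without control mouse 1 the split was 13 higher and 28 lower, with a median of -0.05, against 0.03 over all genes. In 15 of 41 members the sign of the difference changed between the 2 comparisons, against 2408 of all 13666 genes. Among the 9 mice the split still hung on single control mice: leaving out control mouse 2 gave 25 higher and 16 lower, and leaving out control mouse 3 gave 4 higher and 37 lower. A difference under 1 SE was found in 32 of 41 members over 10 mice and in 31 without control mouse 1. Among all 13666 genes it was found in 8130 and 6348.

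Intervals bounded the differences that these mice allow. The unadjusted 95 percent intervals of all 41 members lay within 1 either way on the log2 scale in both comparisons. So did those of 13137 of all 13666 genes over 10 mice and of 13434 without control mouse 1. Over 10 mice 35 intervals lay within 0.5 either way on the log2 scale, and the exceptions were Cdc6, Mcm5, Cdc45, Rrm2, Ccne2 and Mki67. Without control mouse 1, 39 lay within 0.5, and the exceptions were Ccne2 and Mki67. Of all 13666 genes, 10473 lay within 0.5 over 10 mice and 11161 without control mouse 1. In fold terms the ends of the intervals ran between 0.756 and 1.97 over 10 mice and between 0.735 and 1.44 without control mouse 1. The median SE of the members was 0.14 over 10 mice and 0.11 without control mouse 1, against 0.11 and 0.10 over all genes. An unadjusted p over 0.5 was found in 63.4 percent of members over 10 mice, against 44.3 percent of all genes, and in 58.5 percent without control mouse 1, against 33.3 percent of all genes.

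**Figure D2:**
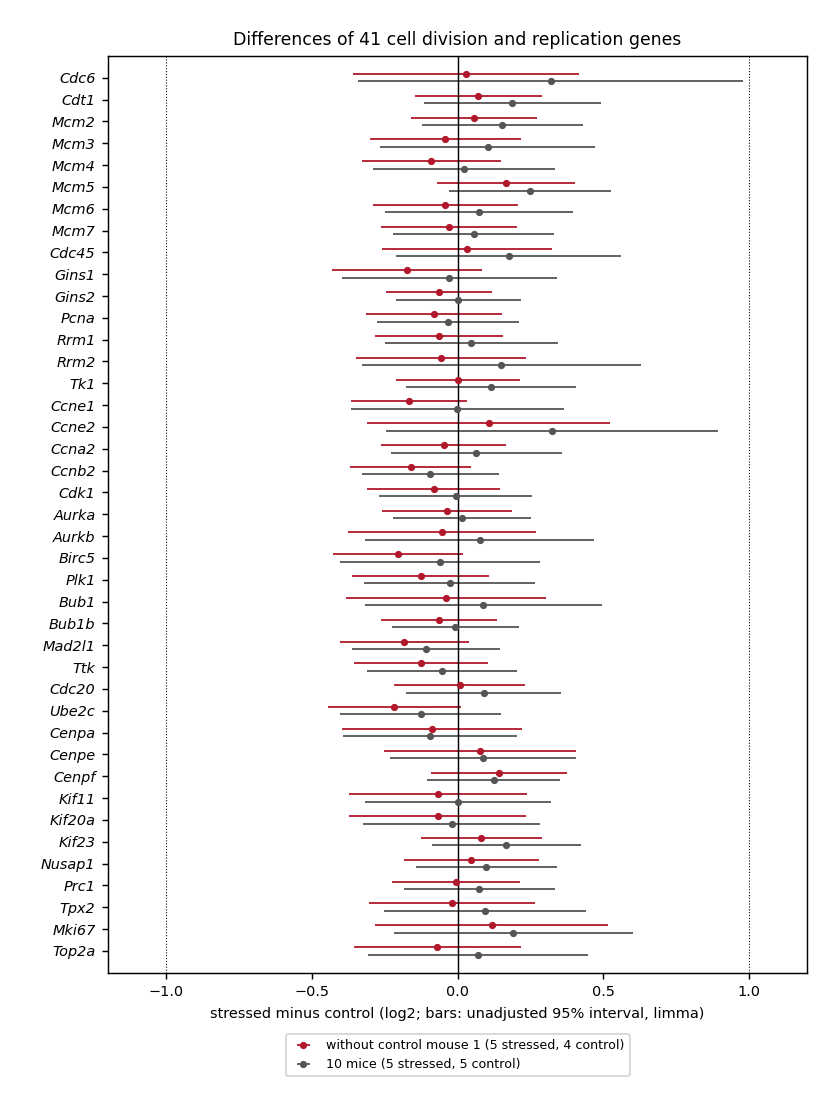
Log2 difference of each member (stressed minus control) and its unadjusted 95 percent interval, over 10 mice and without control mouse 1, ordered by role. All intervals hold 0, and those of Cdc6 and Ccne2 are among the widest over 10 mice.

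**Figure D3:**
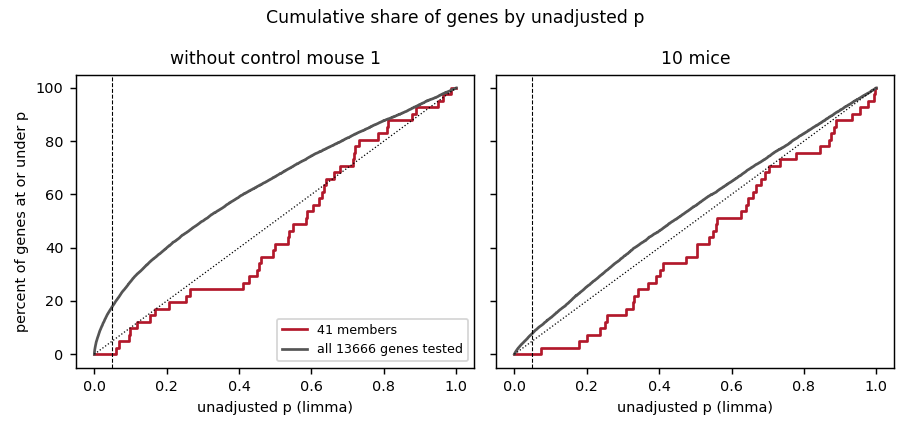
Cumulative percent of genes at or under each unadjusted p from limma, for the 41 members and for all 13666 genes tested, without control mouse 1 and over 10 mice. The dashed line marks 0.05, which 0 members pass, against 18.0 percent of all genes without control mouse 1 and 7.82 percent over 10 mice.

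Licensing factors and subunits of the replicative helicase were the largest role, with 11 members. Over 10 mice 10 of them were higher and 1 lower in stressed mice, from -0.03 for Gins1 to 0.32 for Cdc6, and without control mouse 1 there were 5 higher and 6 lower. Mcm5, a subunit of the Mcm2-7 helicase ring, measured 8.83, 8.78, 8.83, 8.48 and 8.55 in stressed mice 1 to 5, against 8.11, 8.64, 8.33, 8.43 and 8.73 in control mice 1 to 5. Stressed mice 1 and 3 held the highest values and control mice 1 and 3 the lowest, and control mouse 5 lay above stressed mice 4 and 5. The difference of Mcm5 was 0.25 ± 0.13 over 10 mice, with an interval of -0.03 to 0.53, an unadjusted p of 0.0734 and an adjusted p of 0.684. It was 0.17 ± 0.11 without control mouse 1 (adjusted p = 0.444), and the other bright probe set of Mcm5 gave -0.03 there.

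Cdc6 loads the Mcm ring onto origins together with Cdt1. Its levels were 5.49, 6.04, 5.76, 5.54 and 5.64 in stressed mice, against 4.21, 5.88, 5.10, 5.62 and 6.06 in control mice. Control mouse 1 lay far below the others and control mouse 3 next, while control mice 2, 4 and 5 overlapped the stressed ones. The difference was 0.32 ± 0.30 over 10 mice and 0.03 ± 0.18 without control mouse 1. Cdt1 measured 9.39, 9.28, 9.26, 9.25 and 9.18 in stressed mice, against 8.61, 9.20, 9.0, 9.11 and 9.50 in control mice. Here the highest and the lowest mouse were both controls, and the difference was 0.19 ± 0.14 over 10 mice and 0.07 ± 0.10 without control mouse 1.

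Among the other helicase genes, Mcm2 had levels of 8.45, 8.30, 8.22, 8.17 and 8.09 in stressed mice, against 7.70, 8.32, 8.00, 8.11 and 8.35 in control mice. Control mouse 1 was the lowest and stressed mouse 1 the highest. The difference of Mcm2 was 0.15 ± 0.13 over 10 mice, and its other bright probe set gave -0.06. Without control mouse 1 these were 0.06 ± 0.10 and -0.17. Mcm7 lay at 10.09, 9.96, 9.97, 9.85 and 9.63 in stressed mice and at 9.50, 9.98, 9.78, 9.82 and 10.13 in control mice, with both extremes among the controls. The difference of Mcm7 was 0.06 ± 0.13 over 10 mice and -0.03 ± 0.11 without control mouse 1. Cdc45, which joins the Mcm ring and the GINS complex into the active helicase, measured 6.25, 6.30, 6.50, 5.95 and 5.98 in stressed mice, against 5.45, 6.21, 5.84, 6.37 and 6.23 in control mice. Its difference was 0.17 ± 0.18 over 10 mice and 0.03 ± 0.13 without control mouse 1. Gins1, a GINS subunit, measured 6.06, 6.22, 6.19, 5.90 and 5.93 in stressed mice, against 5.50, 6.55, 6.08, 6.00 and 6.31 in control mice. Control mouse 2 was the highest and control mouse 1 the lowest, and the difference without control mouse 1 was -0.17 ± 0.12 (adjusted p = 0.461). The remaining helicase subunits differed by 0.00 for Gins2 to 0.10 for Mcm3 over 10 mice and by -0.09 for Mcm4 to -0.04 for Mcm3 without control mouse 1.

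Genes of the replication fork and of nucleotide supply showed no more. Pcna, the sliding clamp that holds polymerases on DNA, measured 10.45, 10.87, 10.98, 10.58 and 10.74 in stressed mice, against 10.55, 10.87, 10.84, 10.70 and 10.81 in control mice. Stressed mouse 1 was the lowest and stressed mouse 3 the highest, so the control mice lay inside the stressed range. The difference of Pcna was -0.03 ± 0.11 over 10 mice and -0.08 ± 0.11 without control mouse 1. Rrm1 and Rrm2, the subunits of ribonucleotide reductase, differed by 0.05 and 0.15 over 10 mice and by -0.06 each without control mouse 1. The thymidine kinase Tk1 differed by 0.11 over 10 mice and by 0.00 without control mouse 1.

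Cyclins drive the cycle through their kinases, E-type cyclins into S phase, Ccna2 through S phase and Ccnb2, with Cdk1, into mitosis. Ccne2 measured 6.33, 7.12, 6.97, 6.64 and 7.00 in stressed mice, against 5.62, 6.66, 6.29, 7.21 and 6.67 in control mice. It varied widely in both groups, with its lowest values in control mice 1 and 3 and its highest in control mouse 4. The difference was 0.32 ± 0.26 over 10 mice, with an interval of -0.25 to 0.89, and 0.11 ± 0.19 without control mouse 1, with an interval of -0.31 to 0.52. Ccne1 measured 6.61, 6.45, 6.42, 6.25 and 6.30 in stressed mice, against 5.74, 6.46, 6.53, 6.56 and 6.74 in control mice. Control mouse 1 was the lowest, and among stressed mice only mouse 1 reached the range of control mice 2 to 5. The difference was -0.000721 ± 0.17 over 10 mice, and without control mouse 1 it was -0.17 ± 0.09 (adjusted p = 0.359).

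Ccnb2 had levels of 7.98, 8.06, 7.99, 7.95 and 8.10 in stressed mice, against 7.84, 8.34, 8.23, 7.88 and 8.26 in control mice. Stressed mice lay close together between the low and the high controls. The difference was -0.09 ± 0.11 over 10 mice and -0.16 ± 0.10 without control mouse 1 (adjusted p = 0.393). Ccna2 lay at 8.93, 8.99, 9.0, 8.83 and 8.87 in stressed mice and at 8.41, 9.19, 8.78, 8.80 and 9.11 in control mice, again with the stressed mice inside the control range. Its difference was 0.06 ± 0.13 over 10 mice and -0.05 ± 0.10 without control mouse 1. Cdk1 differed by -0.01 over 10 mice and by -0.08 without control mouse 1.

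Mitotic kinases and the spindle checkpoint were the role in which all members leaned one way without control mouse 1. At the probe sets used, all 8 were lower in stressed mice there, by -0.20 for Birc5 to -0.04 for Bub1 and Aurka, and 0 of 8 passed the test. The other bright probe set of Bub1b gave 0.16 there, and control mouse 2 was the highest mouse in each of the 8. Over 10 mice 3 of the 8 were higher and 5 lower. Birc5 is survivin, a subunit of the chromosomal passenger complex that carries Aurkb, and it measured 7.85, 8.13, 8.12, 7.96 and 8.04 in stressed mice, against 7.51, 8.47, 8.07, 8.05 and 8.31 in control mice. Control mice 2 and 5 were above all stressed mice and control mouse 1 below them. The difference of Birc5 was -0.06 ± 0.16 over 10 mice and -0.20 ± 0.10 without control mouse 1 (adjusted p = 0.316).

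Mad2l1 encodes the checkpoint protein that holds back the anaphase-promoting complex until kinetochores are attached. It measured 8.03, 8.34, 8.39, 8.17 and 8.28 in stressed mice, against 8.05, 8.67, 8.33, 8.28 and 8.42 in control mice, with stressed mouse 1 the lowest and control mouse 2 the highest. The difference was -0.11 ± 0.12 over 10 mice and -0.18 ± 0.10 without control mouse 1 (adjusted p = 0.363). Plk1, a kinase of mitotic entry and spindle assembly, had levels of 7.06, 7.06, 7.08, 7.02 and 6.72 in stressed mice, against 6.61, 7.37, 7.00, 6.93 and 7.16 in control mice. Its stressed values were alike except in stressed mouse 5, and its difference was -0.03 ± 0.13 over 10 mice and -0.13 ± 0.11 without control mouse 1. Ttk, a checkpoint kinase, measured 5.73, 5.89, 6.10, 5.97 and 6.03 in stressed mice, against 5.71, 6.31, 5.95, 5.89 and 6.13 in control mice. Its difference was -0.05 ± 0.12 over 10 mice and -0.13 ± 0.10 without control mouse 1.

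Ube2c, the ubiquitin-conjugating enzyme of the anaphase-promoting complex, came closest to the threshold without control mouse 1. It measured 8.87, 9.01, 9.02, 8.97 and 8.99 in stressed mice, against 8.74, 9.43, 9.27, 8.86 and 9.19 in control mice. All 5 stressed mice lay above control mice 1 and 4 and below control mice 2, 3 and 5. The difference was -0.13 ± 0.13 over 10 mice, and without control mouse 1 it was -0.22 ± 0.10, with an interval of -0.44 to 0.01, an unadjusted p of 0.0594 and an adjusted p of 0.297. Cdc20, the activator of the same complex, measured 9.47, 9.58, 9.35, 9.44 and 9.42 in stressed mice, against 9.03, 9.66, 9.22, 9.29 and 9.62 in control mice. Its difference was 0.09 ± 0.12 over 10 mice and 0.01 ± 0.10 without control mouse 1.

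At the centromere, Cenpa and Cenpf departed from the other members in that control mouse 1 was not low at the probe sets used. Their other bright probe sets deviated in control mouse 1 by -0.19 and -0.05 from the mean of the other 9 mice. Cenpa, the histone H3 variant of centromeres, measured 7.09, 7.49, 7.28, 7.16 and 7.59 in stressed mice, against 7.44, 7.72, 7.36, 7.04 and 7.51 in control mice. Its difference was -0.09 ± 0.14 in both comparisons, while its other bright probe set gave 0.05 over 10 mice and 0.02 without control mouse 1. Cenpf, a protein of the outer kinetochore, had levels of 6.46, 6.62, 6.49, 6.61 and 6.53 in stressed mice, against 6.49, 6.69, 6.10, 6.36 and 6.45 in control mice. Its difference was 0.12 ± 0.10 over 10 mice and 0.14 ± 0.11 without control mouse 1, while its other bright probe set gave -0.05 and -0.07. The kinetochore motor Cenpe differed by 0.09 over 10 mice and by 0.08 without control mouse 1.

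Spindle motors and midzone proteins differed by -0.02 to 0.17 over 10 mice and by -0.07 to 0.08 without control mouse 1. Kif23, a midzone motor needed for cytokinesis, measured 7.67, 7.81, 7.63, 7.62 and 7.61 in stressed mice, against 7.15, 7.82, 7.37, 7.50 and 7.66 in control mice. Control mice 1 and 3 were the lowest, and the difference was 0.17 ± 0.12 over 10 mice and 0.08 ± 0.10 without control mouse 1. Nusap1, a microtubule-bundling protein, measured 7.46, 7.66, 7.93, 7.74 and 7.65 in stressed mice, against 7.38, 7.87, 7.49, 7.61 and 7.57 in control mice. Its difference was 0.10 ± 0.11 over 10 mice and 0.05 ± 0.11 without control mouse 1.

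Mki67 and Top2a, the topoisomerase that untangles sister chromatids, are the usual stains of proliferating cells. Mki67 measured 9.39, 9.21, 9.06, 9.23 and 8.82 in stressed mice, against 8.66, 9.33, 8.44, 8.94 and 9.41 in control mice. Control mouse 3 was the lowest and control mouse 5 the highest, so the controls spanned all stressed mice. The difference of Mki67 was 0.19 ± 0.19 over 10 mice, with an interval of -0.22 to 0.60, and 0.12 ± 0.18 without control mouse 1. Top2a differed by 0.07 over 10 mice and by -0.07 without control mouse 1.

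The widest departure in these genes was between mice of the control group. Control mouse 1 was the lowest of the 10 mice in 34 of 41 members (82.9 percent), against 18.6 percent of all genes, and it lay under all other controls in 36. Its median deviation from the mean of the other 9 mice was -0.48 over the members and 0.08 over all genes. The deviation was -1.48 for Cdc6, -1.15 for Ccne2 and -1.0 for Rrm2, and 39 of 41 members lay below that mean, the exceptions being Cenpa at 0.08 and Cenpf at 0.02. Among the 74 probe sets of the members above the filter, 70 were below the mean of the other 9 mice in control mouse 1. Control mouse 1 also differed from the others in markers of the tissue. The mean of the large intestine and posterior list was 10.1 in stressed mouse 4 and 10.7 in control mouse 1, against 6.74 to 7.25 in the other 8 mice, and 7 of the 12 genes of that list lay below the filter. The mean of the enterocyte list was 7.17 in control mouse 1, against 10.1 to 11.1 in the other 9, and that of the Paneth cell list 8.24, against 12.3 to 12.7. Olfm4, a marker of crypt base cells in the small intestine, lay between 11.71 and 12.03 in stressed mice and between 11.77 and 11.94 in control mice 2 to 5, but at 2.48 in control mouse 1. The other markers of the crypt list went both ways in control mouse 1. Slc12a2 at 11.81, Prom1 at 12.27, Cd44 at 9.69, Sox9 at 7.42 and Znrf3 at 7.35 lay above all other mice. Smoc2 at 6.70, Axin2 at 7.03, Lgr5 at 6.34 and Tnfrsf19 at 5.50 lay below all other mice. The median deviation of the 15 crypt markers in control mouse 1 was -0.01. The part of these differences in tissue in the low levels of the cell division genes was not tested. In stressed mouse 4, which shared the high large intestine list, the median deviation of the members was -0.09.

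**Figure D4:**
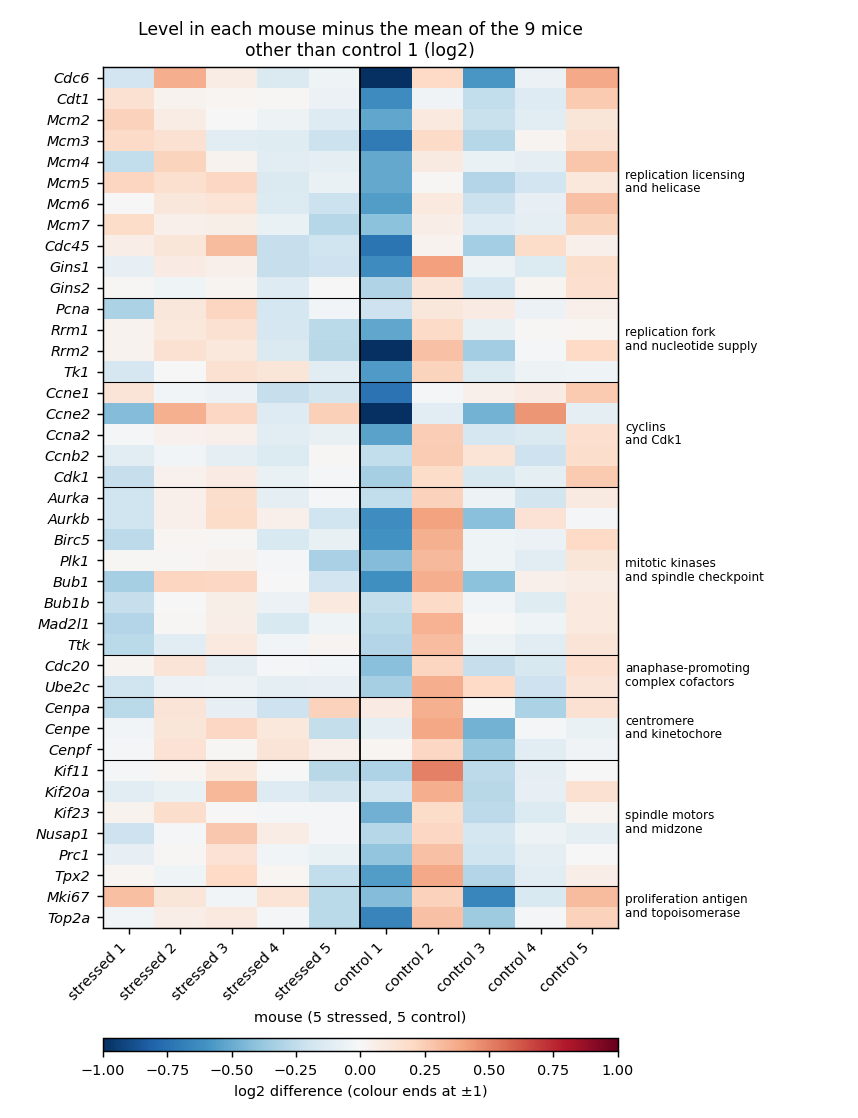
Level of each of the 41 members in each mouse minus the mean of the 9 mice other than control mouse 1, on the log2 scale, with stressed mice on the left and control mice on the right. Control mouse 1 is below that mean in 39 members, control mouse 2 is above it in 38, and the stressed mice are paler.

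Among the other 9 mice the members also moved together within a mouse. Of 41 members, 16, 32, 32, 10 and 6 lay above their mean of the 9 mice in stressed mice 1 to 5, and 38, 6, 8 and 35 in control mice 2 to 5. The share of all genes above it ran between 41 and 57.2 percent. Control mouse 2 was the highest of the 9 in 25 members and control mouse 5 in 9, while control mouse 3 was the lowest in 22. The mean over the 41 members was 7.59, 7.73, 7.75, 7.59 and 7.55 in stressed mice, against 7.18, 7.88, 7.46, 7.59 and 7.78 in control mice. Stressed mice averaged 7.64 ± 0.09 (SD, n = 5) and control mice 7.58 ± 0.28 (SD, n = 5), or 7.68 ± 0.19 (SD, n = 4) without control mouse 1. The lowest and the highest of the 9 were control mice 3 and 2, and all stressed mice lay between them.

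The stressed mice were more alike than the controls in most members. The SD was lower in stressed mice than in the 4 control mice in 34 of 41 members (82.9 percent), against 56.1 percent of all genes. The median SD of the members was 0.145 in stressed mice and 0.212 in the 4 control mice, against 0.131 and 0.147 over all genes. With control mouse 1, the median SD in control mice was 0.285 over the members and 0.210 over all genes, and 40 of 41 members (97.6 percent) had the lower SD in stressed mice, against 77.2 percent of all genes. These are descriptions of 5 and 4 or 5 mice, and no test of the spread was made.

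Replication and mitosis did not move alike in every mouse. In stressed mouse 1 the median deviation was 0.03 over the members of DNA replication and -0.20 over those of mitosis, from kinases to midzone. In control mouse 2 it was 0.11 for replication and 0.34 for mitosis. Stressed mouse 1 also had the highest ratio of 3' to 5' signal for Actb and Gapdh, a measure of RNA integrity, at 1.13 on the log2 scale, against 0.445 to 0.704 in the other 9 mice. Without stressed mouse 1 and control mouse 1, the median difference of the 41 members was -0.03.

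Where a member had several bright probe sets, these did not always give the same sign. The 23 such members had 56 probe sets above the filter. In 10 of them the probe sets differed in sign over 10 mice, and in 16 without control mouse 1. Kif11, the motor that pushes spindle poles apart, differed by 0.00 over 10 mice at the probe set used and by 0.42 at a dimmer one, which gave 0.34 without control mouse 1. The probe sets used for Mcm5, Rrm2, Ccne1, Aurkb and Cdc20 end in _x_at and those of Mcm2, Mcm3, Mcm7, Gins2 and Prc1 in _s_at, the maker's marks for probes that may also match other transcripts.

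Other genes of the same pathways gave a like picture. Of 44 further replication genes 41 were tested, and 0 were called and 0 passed an unadjusted p of 0.05 in either comparison. By the smaller p of the 2 comparisons, the first genes were Rfc4, a clamp loader subunit, at -0.20 ± 0.10 and the histone chaperone Asf1b at -0.16 ± 0.10 without control mouse 1, and Orc6, of the origin recognition complex, at 0.13 ± 0.07 and the DNA methylation cofactor Uhrf1 at 0.29 ± 0.18 over 10 mice. Uhrf1 differed by 0.14 ± 0.12 and Orc6 by 0.13 ± 0.08 without control mouse 1, and Rfc4 by -0.08 and Asf1b by -0.07 over 10 mice. Of 64 further mitosis genes 63 were tested and 0 were called. H2az1, a histone variant, was the 1 gene with an unadjusted p under 0.05, at -0.24 ± 0.08 without control mouse 1 (adjusted p = 0.170). Pttg1, the securin, differed by 0.18, Espl1, the separase, by -0.24 and the kinetochore protein Zwint by 0.14 there. Over 10 mice H2az1 differed by -0.16, Pttg1 by 0.02, Espl1 by -0.15 and Zwint by 0.07.

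Of 26 genes that govern entry into the cycle 25 were tested, and 0 were called in either comparison, although their differences reached farther than those of the members. Skp2, which marks a cyclin-dependent kinase inhibitor for degradation, measured 6.29, 6.15, 6.23, 6.20 and 6.17 in stressed mice, against 5.27, 5.96, 5.73, 6.02 and 6.07 in control mice. All stressed mice lay above all controls, with or without control mouse 1. Over 10 mice the difference was 0.40 ± 0.14 (adjusted p = 0.497), and over 9 mice 0.26 ± 0.08 (adjusted p = 0.134). Ccnd1, a D-type cyclin that answers growth signals, differed by -0.43 ± 0.15 (adjusted p = 0.165), the transcription factor E2f2 by -0.40 ± 0.15 (adjusted p = 0.207) and the retinoblastoma gene Rb1 by 0.27 ± 0.12 (adjusted p = 0.261) without control mouse 1. Over 10 mice Ccnd1 differed by -0.29 ± 0.19, E2f2 by -0.04 ± 0.34 and Rb1 by 0.34 ± 0.13. At an unadjusted p under 0.05 there were 3 genes higher and 0 lower over 10 mice, and 2 higher and 2 lower without control mouse 1. These counts of 25 stand against 7.82 percent of all genes over 10 mice and 18.0 percent without control mouse 1. Skp2 was the 1 gene of the 25 whose groups did not overlap, against 2.28 percent of all genes over 10 mice and 7.24 percent over 9.

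Of 16 inhibitors of the cycle that were tested, 0 were called in either comparison. E2f4, a repressing E2F factor, differed by -0.24 ± 0.09 over 10 mice (adjusted p = 0.520) and by -0.26 ± 0.09 over 9 mice (adjusted p = 0.167). The kinase inhibitor Cdkn1c differed by 0.16 ± 0.16 over 10 mice and by 0.30 ± 0.11 without control mouse 1 (adjusted p = 0.175). Stress-response genes Gadd45b and Gadd45a differed by -0.26 ± 0.11 and 0.32 ± 0.17 over 10 mice, with adjusted p = 0.596 and 0.700.

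Markers of the cell types that could carry these RNAs were set beside the members. Of 15 crypt and stem cell markers tested 0 were called, and their mean lay between 8.04 and 8.37 in stressed mice and between 7.94 and 8.18 in control mice 2 to 5, with 7.56 in control mouse 1, a mean that holds the low Olfm4. At an unadjusted p under 0.05, 2 crypt markers were higher and 0 lower in stressed mice over 10 mice, and 3 were higher and 0 lower without control mouse 1. These counts of 15 stand against 7.82 percent of all genes over 10 mice and 18.0 percent without control mouse 1. Of the 15 crypt markers 10 were higher and 5 lower in stressed mice in both comparisons. The 3 brightest, Slc12a2, Olfm4 and Prom1, differed by 0.25, 0.03 and -0.13 without control mouse 1. Lgr5, a receptor of crypt stem cells named here after its values were seen, lay above all controls in all stressed mice in both comparisons, at 0.39 ± 0.11 without control mouse 1 (adjusted p = 0.0993). The groups did not overlap in 1 of the 15 crypt markers over 10 mice and in 2 over 9, against 2.28 and 7.24 percent of all genes. B cells of germinal centres also divide. The mean of the 11 B cell and germinal centre markers tested, of 18, lay between 5.34 and 5.59 in stressed mice. It lay between 5.67 and 6.57 in control mice 2 to 5, highest in control mice 5 and 2. In control mouse 1 it was 5.23, below all stressed mice. Without control mouse 1, 2 of the 11 were called lower in stressed mice. Of 9 plasma cell markers tested 3 were called lower there, among them Jchain at -0.85 ± 0.15 (adjusted p = 0.0342), and of 8 T cell markers 1, Cd7, at -0.39 ± 0.08 (adjusted p = 0.0459). These counts stand against 0.798 percent of all genes called without control mouse 1 (36 higher, 73 lower). Over 10 mice 0 of these markers were called, and 0 percent of all genes. The mean of the B cell list was 6.00, 5.87 and 6.57 in control mice 2, 3 and 5. Its median deviation from the mean of the 9 mice was 0.04, 0.23 and 0.72 in the same order. Over the members the median deviation in these mice was 0.22, -0.20 and 0.13. The part of the lymphoid cells in the levels of the members was not tested.

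**Figure D5:**
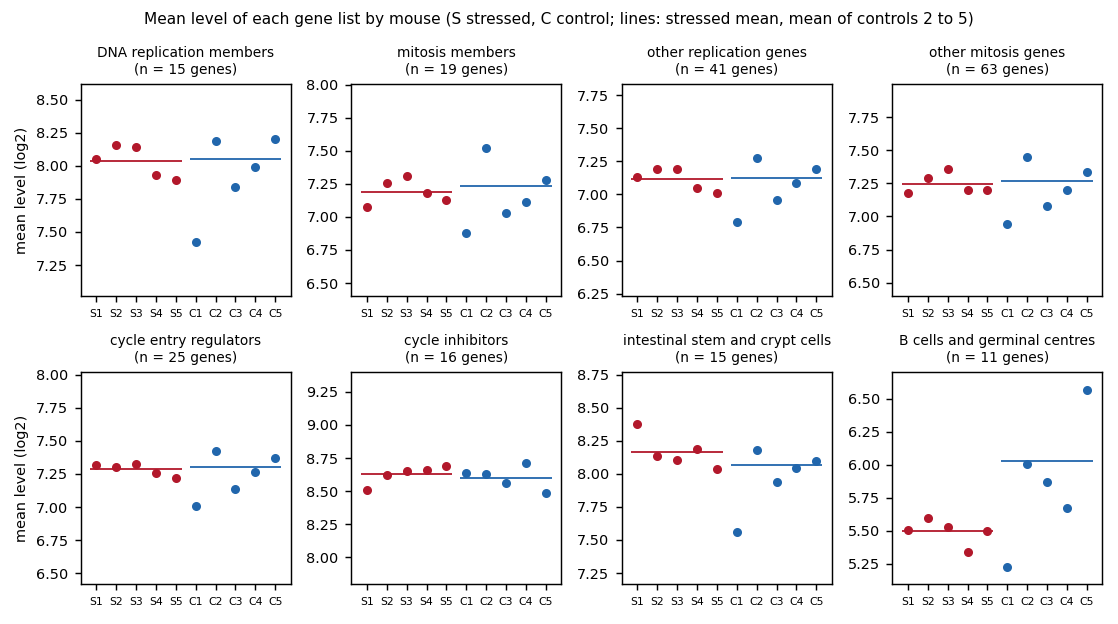
Mean log2 level in each mouse of the members of DNA replication, the members of mitosis, the 4 pathway lists, the crypt list and the B cell list, with stressed mice (S) left of control mice (C) and lines at the mean of stressed mice and of control mice 2 to 5. The mean of the mitosis members spans 7.07 to 7.31 in stressed mice and 7.03 to 7.52 in control mice 2 to 5, and the B cell list does not overlap between them. Control mouse 1, at 5.23 in the B cell list, lies below all stressed mice.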

How the data were processed

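Per the labels' protocols, RNA of 10 terminal ilea (5 stressed mice, 5 control mice; groups and mouse numbers from the titles) was purified on columns, and 100 ng was labelled with a 3' in vitro transcription kit. The authors deposited log2 values made with RMA, per the submitters' processing notes; the sources used here name no software version, and base 2 was inferred from the range of 1.22 to 14.4. RMA gives all arrays the same distribution and hides a change in total RNA. Arrays have no read depth, and their number limits the precision. No pair of arrays was identical (0 pairs).

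The lowest 40 percent of the 45101 probe sets by mean were left out (floor 4.15). Only the 34945 probe sets with 1 gene symbol were used, 1 per gene, the brightest. Groups were compared with limma 3.58.1 (lmFit, eBayes) in R 4.3.3 over all 13666 genes, with Benjamini-Hochberg adjustment and a threshold of 0.05. The script was tested on simulated data. The labels give no batch. The members, role groups, pathway lists and marker lists were chosen with earlier results of these data known, so no list was tested as a set. Values per mouse are given for the 10 members with the smallest p in each comparison and the brightest of each of the 8 role groups. From each pathway list up to 4 genes by p are named, and from each marker list up to 3 of the highest level. Further crypt markers were named after their values were seen. Alternatives changed the filter, the probe set, the variance model, the normalization, the replicate block and the mice included.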

Additional observations from a re-analysis of the deposited data

Results flagged for a closer look

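In 82 groups of members (41 genes in 2 groups of 5 mice), the gap of a mouse to its nearest neighbour was divided by the range of its group. In 4 groups this ratio exceeded Dixon's 95 percent critical value of 0.71. Chance flags about 1 in 20 groups. Ccne1 was at 5.74 in control mouse 1, with the nearest control mouse at 6.46. Plk1 was at 6.72 in stressed mouse 5, with the nearest stressed mouse at 7.02. Kif20a, a motor of the central spindle, was at 6.58 in stressed mouse 3, with the nearest stressed mouse at 6.19. Kif23 was at 7.81 in stressed mouse 2, with the nearest stressed mouse at 7.67.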

How the results depend on the processing

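Under 19 alternatives over 10 mice and 17 without control mouse 1, 0 members were called, and the smallest adjusted p of a member was 0.297 and 0.107. The 0.297 came from leaving out control mouse 1. At an unadjusted p under 0.05 there were 0 to 2 members higher and 0 lower over 10 mice. Without control mouse 1 there were 0 to 1 higher and 0 to 5 lower. The 5 were Ccne1, Ccnb2, Birc5, Mad2l1 and Ube2c after a further quantile normalization, against 17.4 percent of all genes. Leaving out control mouse 4 as well gave 3 lower, against 16.2 percent. With no filter on dim probe sets, Tyms was included and was not called. The number of all genes called moved more. Over 10 mice, where 0 were called, it was 2 with the mean of all probe sets of a gene, 2 with the probe set of largest variance, 2 after a further quantile normalization, 41 with array weights, 6 without control mouse 1 and stressed mouse 4 (chosen after the data were seen), and 0 to 109 when 1 mouse was left out, the 109 without control mouse 1. Without control mouse 1, where 109 were called, it was 66 with the probe set of largest variance, 169 with a trended and robust variance prior, 171 after a further quantile normalization, and 6 to 154 when 1 more mouse was left out. Single members have a direction here only where the difference was at least 1 SE. Those that took the opposite sign were Mcm2 (-0.0614) and Cenpf (-0.0527) with the probe set of largest variance and Cdc6 (-0.00298) and Mki67 (-0.0238) with array weights over 10 mice, and Mcm5 (-0.0344) and Cenpf (-0.0700) with the probe set of largest variance without control mouse 1. The cause of these changes of sign was not tested. The labels number mice 1 to 5 in both groups. Deviations of same-numbered mice from their group mean correlated at -0.30 to 0.28. The control mean held control mouse 1, so these correlations cannot decide whether the numbers pair the mice. With the replicate block the median difference of the members was 0.07 over 10 mice and -0.03 without control mouse 1, 0 members were called, and 0 and 95 of all genes were called. Without control mouse 1, the block of number 1 held only stressed mouse 1, so that mouse added nothing to the blocked difference. Small differences are limited by the number of mice.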
